A study of Bos taurus with 11 samples.

Results

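Cathepsins are the proteases of the lysosome, and cystatins are small proteins that inhibit the cysteine cathepsins. Of 10 symbols listed for the family, 9 had a probe set on the bovine array that the platform annotation gave to that gene alone, namely CTSL, CTSB, CTSC, CTSD, CTSH, CTSK, CTSS, CTSZ and CST3. The symbol CSTB was not found in that annotation and is not analysed here. The 9 genes had 16 probe sets out of 24016 that were not array controls, and they are 9 of 9155 genes measured. Where a gene had several probe sets, the brightest on average over the arrays stands for it. The family was chosen from its member CTSL, which had been picked by its large difference between the groups in these same arrays. The differences of the members between the groups are therefore given below as a description, with no test.

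Uterine endometrium was taken at slaughter 14 ± 0.4 days after calving from 11 Holstein-Friesian cows of mean parity 4.7, and each cow was measured on 1 array. Cows had been assigned to their regime at random within blocks of similar parity, body condition and previous yield. The severe group (6 cows) was held in severe negative energy balance with silage limited to 25 kg a day, 4 kg of concentrate and 3 milkings. The mild group (5 cows) had silage without limit, 8 kg of concentrate and 1 milking. Both regimes began on day 2 after calving and both groups were lactating, so feed and milking frequency differed together and their parts cannot be told apart. A cow in negative energy balance draws on body reserves because milk output takes more energy than feed supplies.

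Most cathepsins are cysteine proteases related to papain. They are made as inactive precursors, sorted to the lysosome and activated by acid, and several can also be secreted and cut matrix proteins outside the cell. In the uterus after calving the lining is broken down and rebuilt while white blood cells clear debris and bacteria, and cathepsins can take part in such protein breakdown. Cystatin C, the product of CST3, is a secreted inhibitor that binds the active site of the cysteine cathepsins.

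All values are RMA log2 values, the deposited unit, in which a step of 1 is a factor of 2 in signal. A value under 5.52, below which the dimmest 40% of probe sets lie, is called dim, since differences are compressed near the floor of the array. The level of a probe set depends on its probes, so levels are compared between cows for 1 gene and not between genes. The median was 6.20 on every array, and any 2 arrays correlated at 0.948 to 0.991. No stromal marker was dim on average, but their levels ranged widely. VIM averaged 12.9 in severe and 12.8 in mild cows, while PDGFRB lay just above the dim limit, at 5.84 and 5.63. The epithelial marker EPCAM averaged 10.3 in both, while the keratin KRT8 was dim in both. In tissue RNA of this kind, more cells of a type and more RNA per cell cannot be told apart.

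CTSL, a lysosomal endopeptidase that can also cut elastin and collagen, was bright in most severe cows and dim in all mild cows. It stood at 4.86, 7.45, 6.35, 8.16, 8.71 and 7.56 in severe cows 1 to 6, with a median of 7.51. In mild cows 1 to 5 it stood at 4.00, 3.90, 4.62, 4.53 and 4.49. The groups did not overlap, although severe 1, the 1 severe cow with a dim signal, lay just above the highest mild cow. Severe cows averaged 7.18 ± 1.38 (SD, n = 6), against 4.31 ± 0.33 (SD, n = 5) for mild cows, and the groups differed by 2.88 ± 0.56 (SE) on the log2 scale. Because the mild signal lay near the floor, the size of this difference is not exact. It was 3.34 without severe 1 and 2.57 without severe 5. Ordered from the most positive difference down, CTSL ranked 12 among the 9155 genes.

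**Figure D1:**
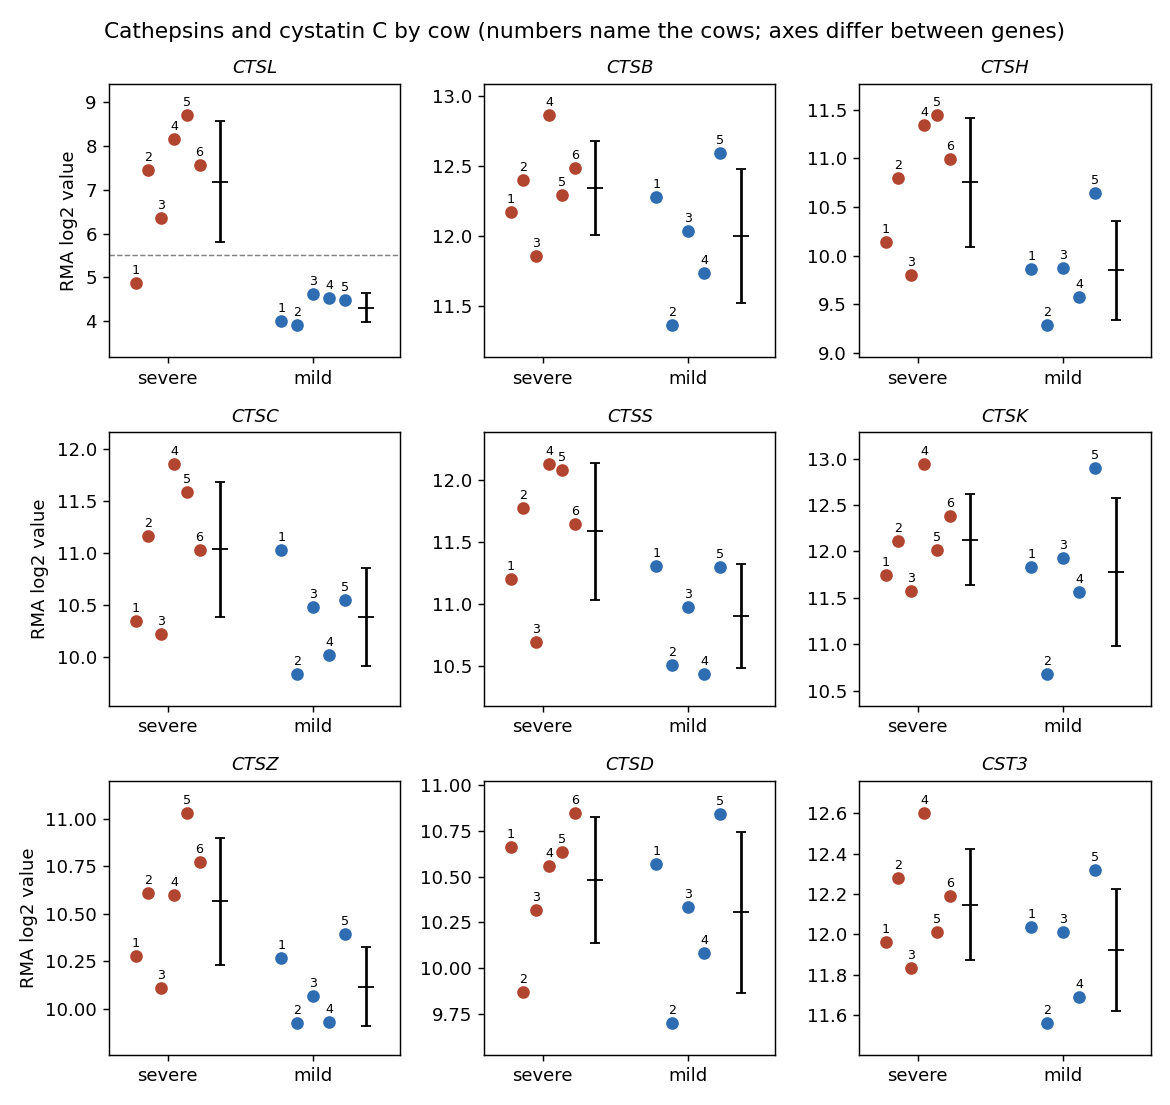
RMA log2 value of each member on each array, severe cows at the left and mild cows at the right of each panel; the small numbers name the cows and the bars are the mean ± SD. The dashed line in the CTSL panel is the dim limit of 5.52, and CTSL is the 1 gene whose groups do not overlap.

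CTSL was the 1 of 9 members whose groups did not overlap. Over all 24016 probe sets, the lowest severe cow lay above the highest mild cow in 0.662%, and the highest severe cow lay below the lowest mild cow in 0.408%. All 9 members were higher in severe cows on average, by between 0.18 and 2.88 with a median of 0.45. Over all genes 48.9% were higher and the median difference was -0.00378. Severe was also compared with mild across all probe sets by limma, a linear model that shares the estimate of spread between probe sets, with Benjamini-Hochberg adjustment. It called 0 of 24016 at an adjusted p under 0.05, that is 0%, and 0 of the 9 members, while 3085 probe sets had an unadjusted p under 0.05. CTSL was chosen on this contrast, so nothing is read from these shares.

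In order of size, CTSH, CTSS, CTSC and CTSZ followed CTSL. CTSH, an aminopeptidase that trims proteins from their start, ran from 9.80 to 11.44 with a median of 10.89 in severe cows. In mild cows 1 to 5 it was 9.86, 9.28, 9.88, 9.57 and 10.64. Severe cows 2, 4, 5 and 6 lay above every mild cow, and severe 1 and 3 lay among the mild cows. The means were 10.75 ± 0.66 (SD, n = 6) and 9.85 ± 0.51 (SD, n = 5), a difference of 0.90 ± 0.32 (SE), or 1.87-fold.

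CTSS, which trims the invariant chain of MHC class II in antigen-presenting cells, ran from 10.69 to 12.13 with a median of 11.71 in severe cows. In mild cows it was 11.30, 10.50, 10.97, 10.43 and 11.30. Here too severe 2, 4, 5 and 6 lay above all mild cows, while severe 1 and 3 fell within the mild range. The difference was 0.69 ± 0.27 (SE), from means of 11.59 ± 0.55 (SD, n = 6) and 10.90 ± 0.42 (SD, n = 5), or 1.61-fold.

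CTSC, also called dipeptidyl peptidase I, activates the serine proteases in the granules of neutrophils and cytotoxic lymphocytes. It ran from 10.22 to 11.86 with a median of 11.09 in severe cows, and stood at 11.03, 9.83, 10.48, 10.02 and 10.55 in mild cows. Only severe 2, 4 and 5 lay above mild 1, the highest mild cow. The means were 11.03 ± 0.65 (SD, n = 6) and 10.38 ± 0.47 (SD, n = 5), a difference of 0.65 ± 0.31 (SE).

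CTSZ, a carboxypeptidase that removes single residues from the end of proteins, ran from 10.11 to 11.03 with a median of 10.60 in severe cows. In mild cows it was 10.27, 9.92, 10.07, 9.93 and 10.39. Severe 2, 4, 5 and 6 were again the cows above the whole mild group. The difference was 0.45 ± 0.16 (SE), or 1.37-fold, from 10.57 ± 0.33 (SD, n = 6) against 10.12 ± 0.21 (SD, n = 5).

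CTSB, CTSK, CTSD and CST3 had the smallest differences, and 1 severe cow at most lay above the highest mild cow in each. CTSB, which acts as an endopeptidase and as a carboxypeptidase, stood at 12.17, 12.40, 11.86, 12.86, 12.29 and 12.49 in severe cows, against 12.28, 11.36, 12.04, 11.73 and 12.59 in mild cows. Severe 4 was the only severe cow above mild 5, mild 2 was the lowest cow of all, and the difference of 0.34 ± 0.22 (SE) was 0.18 without mild 2. CTSK, a collagenase best known from osteoclasts, ran from 11.57 to 12.94 in severe cows, with a median of 12.06. In mild cows it was 11.83, 10.68, 11.93, 11.56 and 12.90. These mild cows spanned a wider range than the severe ones, and the difference of 0.35 ± 0.35 (SE) was 0.07 without mild 2, 0.18 without severe 4 and 0.63 without mild 5.

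CTSD is the aspartic protease among the members and is not inhibited by cystatins. Its severe mean of 10.48 ± 0.35 (SD, n = 6) and its mild mean of 10.31 ± 0.44 (SD, n = 5) lay 0.18 ± 0.21 (SE) apart. That difference depended on several cows, being 0.03 without mild 2, 0.10 without severe 6, 0.30 without severe 2 and 0.31 without mild 5. CST3 ran from 11.83 to 12.60 in severe cows, with a median of 12.10, and was 12.04, 11.56, 12.01, 11.69 and 12.32 in mild cows. Severe 4 was the only severe cow above mild 5, and the difference of 0.22 ± 0.16 (SE) was 0.13 without either mild 2 or severe 4.

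Besides the main probe sets, CTSB had 5 others and CST3 had 2, and they did not all point the same way. Of 6 CTSB probe sets 3 were higher in severe cows, by 0.34 ± 0.22, 0.30 ± 0.24 and 0.55 ± 0.30 (SE). The remaining 3 were lower in severe cows, at -0.17 ± 0.22, -0.10 ± 0.12 and -0.15 ± 0.19 (SE). In all 3 of these severe 2 was the lowest of the 11 cows, at 6.70, 5.59 and 6.43, though in the first mild 1 was close at 6.73. The other CST3 probe sets were at 0.07 ± 0.09 and -0.01 ± 0.10 (SE). With all probe sets of a gene averaged, CTSB differed by 0.13 and CST3 by 0.09.

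**Figure D2:**
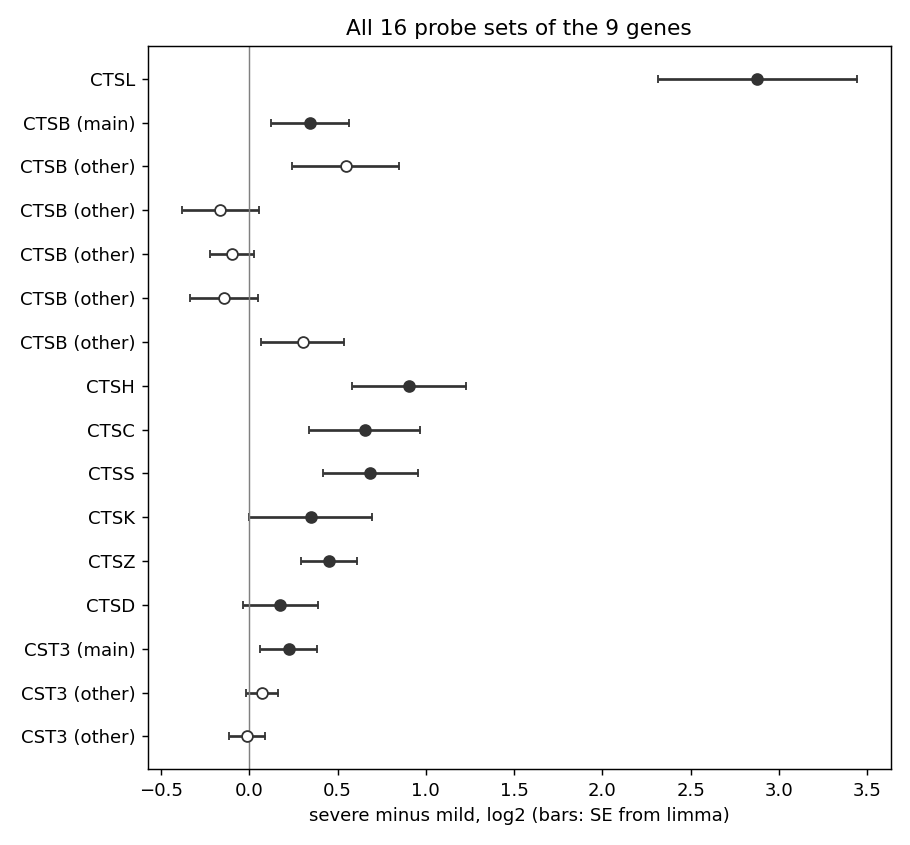
Severe minus mild difference in log2 units for all 16 probe sets of the 9 genes, with the SE from limma as bars; filled points are the main probe sets and open points the others. CTSL at 2.88 stands apart, CTSB has 3 probe sets on either side of 0, and CST3 lies close to 0 in all 3.

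CTSL was then set against the other cathepsins on the same array, a quantity that a shift of the whole array leaves as it is. The mean of the other 7 cathepsins was 11.27 ± 0.42 (SD, n = 6) in severe cows, against 10.76 ± 0.45 (SD, n = 5) for mild cows, and differed by 0.51. CTSL minus that mean was -6.07, -3.79, -4.30, -3.59, -2.88 and -3.89 in severe cows 1 to 6. In mild cows 1 to 5 it was -7.02, -6.28, -6.19, -5.95 and -6.83. Thus 5 of 6 severe cows lay above every mild cow, and severe 1 lay inside the mild range. The group means were -4.09 ± 1.08 (SD, n = 6) and -6.46 ± 0.45 (SD, n = 5), so CTSL differed by 2.37 log2 units more than the other cathepsins did. This was 2.76 without severe 1 and 2.13 without severe 5. Without CTSD, the aspartic protease, it was 2.31.

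CTSV, the closest relative of CTSL on this array, lay the other way. The RefSeq gene table lists CTSL among the older symbols of CTSV, so the 2 genes were told apart by their Entrez gene numbers, 515200 for CTSL and 281108 for CTSV. CTSV stood at 11.48, 10.47, 10.73, 10.66, 10.03 and 10.55 in severe cows 1 to 6, against 11.24, 11.57, 12.05, 12.01 and 10.86 in mild cows 1 to 5. All severe cows but severe 1 lay below every mild cow, and severe 1 was also the cow with the lowest CTSL of its group. The means were 10.65 ± 0.47 (SD, n = 6) and 11.55 ± 0.51 (SD, n = 5), which differ by -0.90 ± 0.26 (SE), and limma did not call it (adjusted p = 0.301). Whether the probes of either gene also bind the transcript of the other was not tested.

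**Figure D3:**
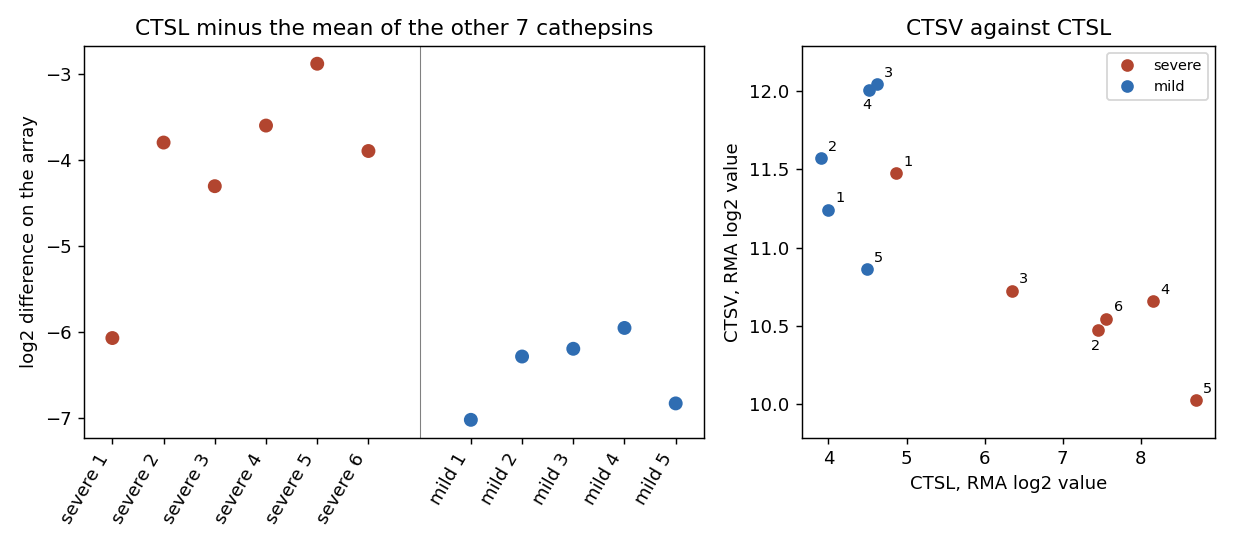
Left, CTSL minus the mean of the other 7 cathepsins on each array in log2 units, severe cows before mild cows. Right, the RMA log2 value of CTSV against that of CTSL, with 1 point a cow and its number beside it. Severe 1 at -6.07 lies among the mild cows on the left, and the other 5 severe cows combine CTSL above 6 with CTSV below 10.8.

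The cows of a group also differed among themselves, and some cows lay to the same side of their group mean in all members. These within-group deviations are each cow's value minus the mean of its own group, so the contrast that chose CTSL does not enter them. Severe 4 lay above its group mean in all 9 members and severe 3 in 0, being the lowest severe cow in 7. In the mild group, mild 5 lay above the mean in all 9 members and was the highest in 6, while mild 2 lay below it in all 9 and was the lowest in 8. The mean deviation of the 7 other cathepsins was 0.49 in severe 4, -0.62 in severe 3, 0.56 in mild 5 and -0.58 in mild 2. The SD of their mean within each group, 0.42 and 0.45, was close to its difference of 0.51 between the groups.

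**Figure D4:**
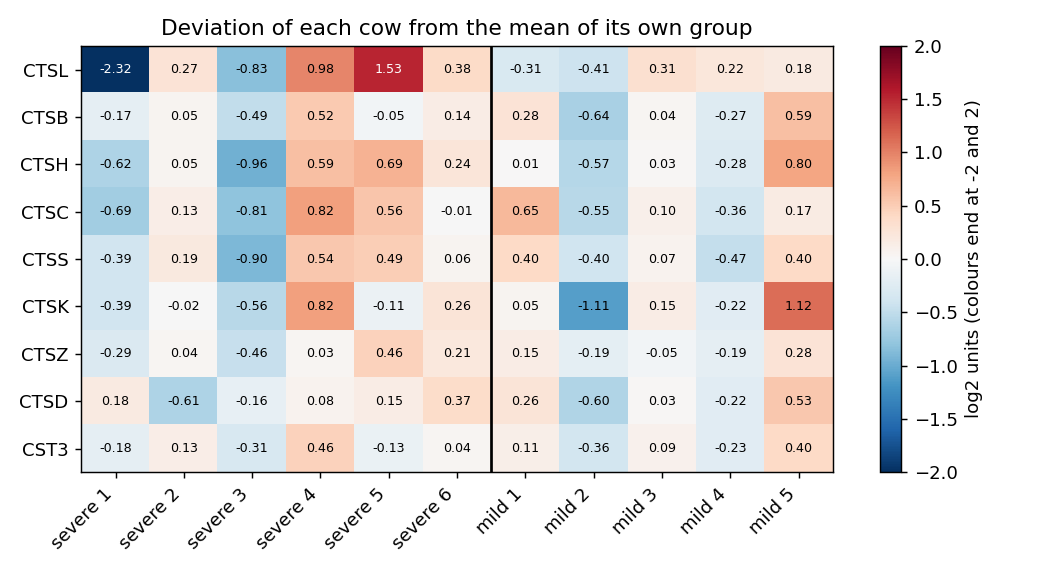
Deviation of each cow from the mean of its own group in log2 units, 9 members down and 11 cows across, severe cows left of the line and mild cows right of it. Severe 4 and mild 5 are above 0 in every row, severe 3 and mild 2 are below 0 in every row, and CTSL in severe 1, at -2.32, is the largest deviation.

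Likeness between genes was measured by Pearson's r of these deviations over 11 cows, with an exact permutation within groups, two-sided, over 86400 orders. P-values were adjusted by Benjamini-Hochberg over all 9154 other genes. The smallest p that these orders can give is 1.16e-05, so a gene can pass only together with others of similarly small p. With cows left out the orders are fewer and that limit is stricter. All 28 pairs among the 8 members other than CTSL had an r above 0, from 0.37 for CTSC with CTSD up to 0.96 for CTSB with CST3, and the median was 0.78. Likeness was common over all genes, however. Of the 9154 other genes, 971 for CTSD up to 1624 for CTSH had an unadjusted exact permutation p under 0.05. Pairs of genes outside the family were not compared, so the 28 pairs are not read as particular to it. CTSB and CST3, a protease and its inhibitor, had r = 0.962 and Spearman's rho = 0.945 (exact permutation p = 4.63e-05 and 0.000116). The adjusted p of that r was 0.0353 among the genes compared with CTSB, of which 0.328% passed, and 0.0283 among those compared with CST3, of which 0.273% passed. CTSK was close to both, with r = 0.958 to CTSB (adjusted exact permutation p = 0.0374) and r = 0.934 to CST3 (adjusted exact permutation p = 0.0466). Adjusted among the genes compared with CTSK, those values were 0.0578 and 0.0662. All these values are of main probe sets. Mild 5 was the highest mild cow in the main CST3 probe set, at 12.32. In the other CST3 probe sets it was the lowest mild cow, at 9.521, close to mild 2 at 9.525, and at 9.193. Likeness of the other probe sets was not tested.

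These 3 relations, between the main probe sets of CTSB, CST3 and CTSK, did not rest on the extreme cows in size. Without mild 2 and mild 5, the cows farthest from the median in CTSB, r was 0.950 for CST3 and 0.925 for CTSK. With 9 cows 0 genes passed the adjustment (smallest adjusted exact permutation p = 0.246). Passing was hardly possible with so few orders, so nothing is read from that count. Without severe 4 and mild 2, the cows farthest from the median in CST3, the r of CST3 was 0.944 with CTSB and 0.892 with CTSK. A second set of members was also alike, CTSC with CTSS at r = 0.946, CTSH with CTSS at 0.919 and CTSH with CTSZ at 0.908, and none of these passed the adjustment. By rho no pair of members passed. CTSD varied least with the rest, at r between 0.06 and 0.66.

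No relation of CTSL with another member passed. Its r was 0.755 with CTSH, 0.722 with CTSC, 0.706 with CTSZ and 0.642 with CTSS (exact permutation p = 0.0119, 0.0252, 0.0443 and 0.0640, adjusted p from 0.270 to 0.422). Spearman's rank correlation was 0.773, 0.655, 0.673 and 0.627 (exact permutation p = 0.0158, 0.0578, 0.0461 and 0.0638). Without severe 1 and severe 5, the cows farthest from the median, r was 0.807, 0.681, 0.593 and 0.706. With CTSK, CST3, CTSB and CTSD it was 0.443, 0.419, 0.402 and 0.0592, and without those cows 0.688, 0.718, 0.670 and 0.284. Over all cows CTSL thus had a higher r with CTSH, CTSC, CTSZ and CTSS, but without those 2 cows CTSK, CST3 and CTSB lay in the same range. The difference between these r was not tested, and CTSL varied little among mild cows, where it was dim.

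With CTSV the r of CTSL was -0.602 (exact permutation p = 0.0509, adjusted p = 0.397) and rho was -0.382 (exact permutation p = 0.236). It was -0.92 within the 6 severe cows (adjusted exact permutation p = 0.407) and 0.0750 without severe 1 and severe 5, so that relation rested on those cows. Of 9154 genes 0 (0%) passed as like CTSL, the smallest adjusted exact permutation p being 0.0706, and 1154 had an unadjusted p under 0.05. A gene alone could not have passed with this number of orders, so the count of 0 is not read as a lack of likeness.

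The 5 genes above the dim limit whose deviations were most like those of CTSL were RUBCNL, GBP1, ST6GALNAC4, FGD2 and RHOG. RUBCNL, a factor of autophagy, had r = 0.963 and rho = 0.909 (exact permutation p = 0.000405 and 0.00191, adjusted p = 0.143 for r). GBP1, an interferon-induced GTPase, had r = 0.939 and rho = 0.927 (exact permutation p = 0.000197 and 0.000301, adjusted p = 0.132 for r). The sialyltransferase ST6GALNAC4, the exchange factor FGD2 and the small GTPase RHOG had r between 0.937 and 0.938 and rho between 0.818 and 0.936. Without severe 1 and severe 5 the r of the 5 genes ran from 0.748 to 0.905. They were picked as the highest among all genes above the dim limit, so these values of r are the top of a long list and no more.

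Markers of white blood cells were also higher in severe cows on average. Of 12 macrophage markers 9 were measured, all 9 were higher in severe cows, and their median difference was 0.83, with 0 past the threshold. The log2 of their summed signal ran from 11.60 in severe 3 to 13.79 in severe 4, and from 11.15 in mild 2 to 12.52 in mild 5. Severe 3 and mild 2 were also the lowest of their group in 7 and 8 of the 9 members, and severe 4 and mild 5 the highest in 5 and 6. This order was not particular to macrophage markers. The same cows were lowest and highest of their group in the summed sorting, membrane, hydrolase and proton pump lists given below. Among stromal markers severe 3 and severe 4 were again the lowest and highest severe cows, at 15.533 and 15.952, though severe 2 was close to severe 3 at 15.536. The highest mild cow there was mild 1, at 16.009, and not mild 5. The neutrophil, epithelial, endothelial, other cathepsin and inhibitor lists did not have this order among severe cows. C1QA and C1QB, complement chains made by macrophages, differed by 1.20 ± 0.43 and 1.20 ± 0.44 (SE, limma adjusted p = 0.322 and 0.332). None of the 9 macrophage markers was dim on average. Within groups, the r of CTSL was 0.885 with AIF1, 0.882 with C1QC and 0.464 with CD68. None passed the adjustment over all genes (adjusted exact permutation p = 0.187, 0.187 and 0.612). Single genes of other lists had a similar r with CTSL. It was 0.867 for the pump subunit ATP6V1E1, 0.859 for the neutrophil marker TREM1 and 0.813 for the stromal gene PDGFRA. The lowest r in those lists was -0.206 for ATP6V1B2, -0.0516 for ELANE and -0.637 for HOXA10.

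Of 10 neutrophil markers 8 were measured and 6 were higher, with a median difference of 2.19 and 0 past the threshold. Their summed signal ran from 11.91 to 14.78 in severe cows and from 8.52 to 11.04 in mild cows, so all 6 severe cows lay above the mild group. CXCR1, the interleukin 8 receptor, differed by 2.67 ± 0.45 and S100A8, a cytosolic calcium-binding protein, by 3.24 ± 0.66 (SE, limma adjusted p = 0.215 and 0.248). CXCR1 was dim in mild cows, so its size is not exact. TREM1 and the granule enzymes MPO and ELANE were dim on average. The part of white blood cells in the values of the cathepsins was not tested.

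Markers of the resident cells had medians near 0. Of 9 epithelial markers 4 were higher and 5 lower, with a median of -0.00246. The median was 0.08 for 9 stromal markers and 0.07 for 5 endothelial markers, with 0 past the threshold in each list. The summed epithelial signal ran from 10.81 in severe 5 to 12.61 in severe 1, against a highest value of 12.91 in mild cows. Only severe 5 and severe 2 lay below every mild cow. Severe 5 and severe 1 are the cows with the highest and the lowest CTSL of the severe group. The severe cows between them did not keep this inverse order. In severe 3, 2, 6 and 4, by rising CTSL, the epithelial signal was 12.125, 11.868, 12.236 and 12.423. CLDN10 and CLDN7, claudins of tight junctions, differed by -0.997 ± 0.42 and -0.42 ± 0.21 (SE, limma adjusted p = 0.359 and 0.433). CLDN4, a claudin named after its value was seen, lay the other way at 0.64 ± 0.35 (SE, limma adjusted p = 0.465). Among the stromal genes PDGFRA differed by 0.97 and HOXA10 by -0.71, and among the endothelial genes CDH5 differed by 0.24 and KDR, which was dim, by -0.24. The part of epithelium in the values of CTSL was not tested.

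The other genes of the lysosomal system, and further cystatin-type inhibitors that include plasma proteins, were counted in 6 lists. Of 68 genes measured 52 were higher in severe cows and 16 lower, with a median of 0.12, and 0 passed limma at an adjusted p under 0.05. At an unadjusted p under 0.05 there were 9 higher and 3 lower, where 6.97% of all probe sets were higher and 5.88% lower at that threshold. The plasma proteins KNG1, which was dim, and AHSG are among the 9 and the 3. The median over all 9155 genes was -0.00378, and that of the members 0.45. The lists follow in the order from relatives of the members to the machinery of the organelle.

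Of the other cathepsins 4 were measured, 3 higher and CTSV lower. CTSF, another papain-like lysosomal protease, averaged 8.01 ± 0.21 (SD, n = 6) in severe cows, against 7.54 ± 0.33 (SD, n = 5) for mild cows, and differed by 0.47 ± 0.15 (SE, limma adjusted p = 0.307), with 4 severe cows above the highest mild cow. CTSA, a serine carboxypeptidase that also protects other lysosomal enzymes, and CTSW, a protease of cytotoxic lymphocytes, differed by 0.22 and 0.35 (limma adjusted p = 0.705 and 0.660). These and CST6 and LGMN below are named as relatives after their values were seen.

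Of 5 other cystatin-type inhibitors 3 were higher and 2 lower, with a median of 0.08. KNG1, a plasma kininogen with cystatin domains, averaged 4.51 in severe and 3.33 in mild cows, both dim, so its difference is not read. AHSG, the plasma protein fetuin A of the same superfamily, differed by -0.18 ± 0.08 (SE, limma adjusted p = 0.367). CST6, cystatin M/E, which inhibits legumain and cathepsins, ran from 8.40 in severe 5 to 11.52 in severe 4, against 8.89 to 10.06 in mild cows. Its spread among severe cows, an SD of 1.16 (n = 6), was wider than its difference of 0.62 ± 0.50 (SE).

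Legumain (LGMN), the lysosomal protease that cuts several cathepsin precursors, averaged 10.29 ± 0.53 (SD, n = 6) in severe cows, against 9.97 ± 0.18 (SD, n = 5) for mild cows, and differed by 0.32 ± 0.22 (SE, limma adjusted p = 0.568). Its list with the sorting factors had 8 of 9 higher, and GGA3 and the mannose 6-phosphate receptor M6PR, which carry enzymes to the lysosome, differed by 0.12 and 0.16 (limma adjusted p = 0.506 and 0.507). Of 12 membrane proteins and regulators 10 were higher, with a median of 0.21. TFEB, the transcription factor that switches on lysosomal genes, differed by 0.25 ± 0.09 and the membrane protein LAMP2 by 0.29 ± 0.11 (SE, limma adjusted p = 0.313 and 0.334).

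Of 22 other lysosomal hydrolases 18 were higher, with a median of 0.15 and a range from -0.29 to 0.43. AGA, which splits sugars from asparagine, and GAA, which breaks down glycogen, each differed by 0.35 (SE 0.13 and 0.14, limma adjusted p = 0.337 and 0.339). The 16 subunits of the proton pump that acidifies the lysosome were divided, 10 higher and 6 lower with a median of 0.02. ATP6V1F was lower in every severe cow than in any mild cow, by -0.23 ± 0.08, while TCIRG1, a subunit of the osteoclast form of the pump, differed by 0.37 ± 0.15 (SE, limma adjusted p = 0.310 and 0.359).

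**Figure D5:**
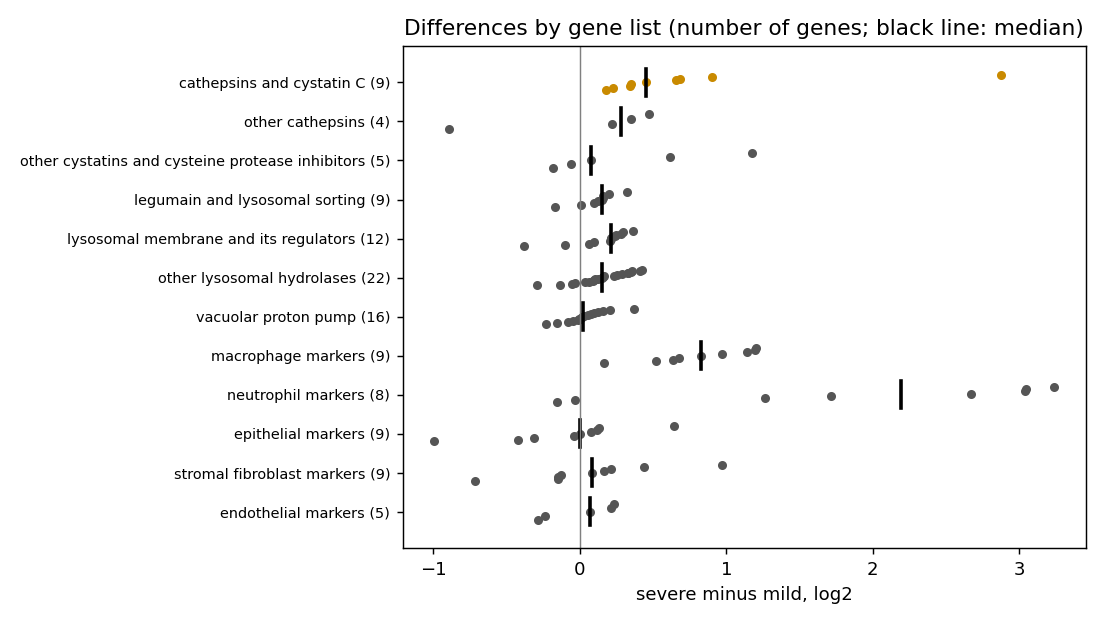
Severe minus mild difference in log2 units of each gene, by list, with the number of genes in brackets and the median as a black line. The 9 members have a median of 0.45, and the lists of other lysosomal genes and inhibitors have medians between 0.02 and 0.28. The macrophage and neutrophil lists have medians of 0.83 and 2.19.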

How the data were processed

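The deposited table holds log2 values made with RMA, per the submitters' processing notes, for 24128 probe sets on 11 arrays. The values themselves showed the log2 scale. No label or header names the software, its version or a filter. Since all arrays share 1 median, a shift of the whole transcriptome would be lost. Of the probe sets, 112 controls were left out. The platform annotation gave 13292 of the rest 1 symbol, 86 several and 10638 none, and names were checked against RefSeq by Entrez number.

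The contrast of severe with mild used lmFit and eBayes of limma 3.58.1 (R 4.3.3), two-sided and adjusted over all 24016 probe sets with a threshold of 0.05. SE values are limma's. Likeness was computed in Python 3.11.15. Both procedures were tested on simulated data. The genes named by rule are all members, in each list the genes past the threshold or else the 2 with the smallest p, and the 5 genes above the dim limit with the highest r to CTSL. Other genes in the text fall outside this rule and were named with their values known. Among them are VIM, PDGFRB, EPCAM, KRT8, AIF1, C1QC, CD68, TREM1, MPO, ELANE, ATP6V1E1 and ATP6V1B2. The members and lists were chosen with earlier results of these data known. Cows are numbered in the order of the samples, and the numbers only name them. The number of arrays limits the precision. Alternatives were each cow left out, another normalization, array weights, a dim filter, other eBayes settings and all probe sets of a gene. No sequence of these genes was used here.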

Additional observations from a re-analysis of the deposited data

How the results depend on the processing

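Every alternative tested all 24016 probe sets except the dim filter, which tested 14409. In each 0 were called except without severe 1, where 16 passed, and without severe 3, where 2 passed. The count thus ran from 0 to 16 when each cow was left out. The count at an unadjusted p under 0.05 was 3085 and ran from 2213 to 3850. Among the 68 genes of the lysosomal and inhibitor lists 0 passed in all 17 alternatives, which were added for these genes after seeing the data. The dim filter did not test the 3 inhibitors among them that were dim on average, KNG1 included. CTSC differed by 0.40 without mild 2 and severe 5, against 0.65. CXCR1 passed without severe 1 (difference 2.92, limma adjusted p = 0.0466). CTSL minus the other cathepsins ran from 2.13 to 2.76 when each cow was left out and was 2.17 without mild 2 and severe 5, a setting added after seeing the data. Of 137 recomputed differences of members, all stayed within 1 SD of the value given and 1 was below 0, CTSD at -0.00553 without mild 2 and severe 5. The r of CTSL turned to -0.00181 with CTSD in severe cows alone and to 0.0750 with CTSV without severe 1 and severe 5. No paired analysis was possible because the labels number no pairs of cows. The arrays already shared 1 median, so the shift to a common median moved values by at most 0.0038. CTSL is dim in all mild cows, which limits what its difference and its r can show.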
